A study of Caenorhabditis elegans with 161 samples.

Results

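N2, the laboratory reference strain of the nematode Caenorhabditis elegans, was compared with mutation-accumulation lines of the same species through embryogenesis. The series holds whole-embryo libraries of 20 strains, 19 of them mutation-accumulation lines known by a number, at 7 stages. The members are the 7 N2 libraries, 1 at each of 0, 60, 180, 270, 440, 650 and 830 min after the 4-cell stage, out of 140 strain libraries. They were set against the 35 libraries of lines 550, 570, 502, 555 and 575, chosen because these 5 lines and N2 come first in the sample numbering and share a library effect. Each library was a pool of 10 embryos that were cut from adults, collected as 4-cell embryos, incubated at 20 °C and frozen, with the same growth and collection for all strains. No treatment was given to either group, and the mutations carried by each line are not given in the labels. The labels do not state whether this N2 stock is the ancestor of the lines, or whether pools came from separate cultures, so p-values measure only the spread between these libraries, which may be technical.

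In a mutation-accumulation experiment, lines are propagated through very small populations so that new mutations, including harmful ones, are retained with little selection. Differences in transcript levels between such lines and a reference strain are used to estimate how readily gene expression changes when selection is weak. Embryogenesis of the nematode runs from maternal transcripts through a burst of zygotic transcription to tissue differentiation, elongation and the building of the first larval cuticle. The title of the study asks how developmental constraint shapes the middle of this course.

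Transcripts were counted by CEL-Seq, which tags polyadenylated RNA with a sample barcode and reads the 3' end after linear amplification. Total counts ran from 32570 to 249938 in the N2 libraries (median 56752) and from 5653 to 351717 in the line libraries (median 99364). The N2 library of 830 min was the deepest of its strain, whereas the 830 min libraries of lines 502 and 555 held 5653 and 14368 counts. The stage markers formed 7 sets of 3 or 4 genes, such as mex-5 at 0 min and myo-2 at 650 min. Each set had its largest sum in the N2 library of its own stage. Only sums were compared, and a single marker could differ. The 440 min marker deb-1, scaled to depth, was higher in N2 at 830 min than at 440 min. Sperm transcripts of the msp family summed to 61.4 to 239 counts per 1000000 counts (CPM) in N2 and 0 to 276 CPM in the lines, and the 6 yolk protein genes to 16 to 2000 CPM and 0 to 3170 CPM, so the groups overlapped in both. Over 2970 genes, the deviation of N2 from the stage means correlated with those of the 5 lines at 0.313 to 0.626 and with those of the other 14 strains at -0.536 to -0.16, which describes the library effect that the choice of lines avoids.

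Across all stages, 6 genes were higher in N2 than in the 5 lines and 0 were lower. They were gut-2, the nematode homolog of the Sm-like RNA-binding protein LSM2, rpb-12, a small subunit shared by the nuclear RNA polymerases, the mitochondrially encoded NADH dehydrogenase subunit MTCE.3 (ND6), and the less well described genes C41G7.7, C49H3.3 and F59C12.4. The fitted levels of 5 of them were 1.75-fold to 2.08-fold those of the lines, and that of C41G7.7 was 8.59-fold. Its log2 value of 3.10 ran from 2.27 to 3.55 with 1 N2 library or 1 line left out, where the gene was still tested. Over the 24 alternatives that tested C41G7.7, against 27 for the other 5 genes, the value ran from 1.79 to 3.97. These 6 made up 0.143% of 4200 genes tested (edgeR quasi-likelihood test with stage as covariate, Benjamini-Hochberg adjusted p under 0.05), and the 4 that also changed at least 2-fold made up 0.0952%. The share called lower in N2 was 0%. Without adjustment, 404 genes (9.62%) had p under 0.05, of which 177 (4.21%) were higher in N2 and 227 (5.4%) lower. DESeq2 on the same genes called 42 higher and 3 lower. In bulk embryos, fewer cells of a type and less RNA per cell cannot be told apart.

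gut-2 stood at 406, 741, 548, 251, 356, 267 and 62.3 CPM in N2 from 0 to 830 min. At 60 min the lines ranged from 223 to 463 CPM, at 180 min from 183 to 262 CPM and at 650 min from 53.8 to 91.3 CPM. N2 lay above all 5 lines at 6 of 7 stages, with the exception of 0 min, where the highest line had 438 CPM. The log2 fold change of gut-2 was 1.03 ± 0.21 (SE; adjusted p = 0.0223, edgeR), with a mean log2 CPM of 8.37 in N2 and at most 7.46 in a line.

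rpb-12 stood at 232, 480, 454, 179, 237, 178 and 173 CPM in N2. The lines ranged from 177 to 249 CPM at 60 min and from 91.4 to 266 CPM at 180 min. At 270 min N2 was inside their range, which reached 239 CPM. Its log2 fold change was 1.04 ± 0.22 (adjusted p = 0.0223, edgeR). The counts behind these values were small, with 4 to 34 reads of rpb-12 in each N2 library.

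C49H3.3 stood at 290, 683, 561, 502, 237, 267 and 173 CPM in N2, above all 5 lines at every stage but 0 min, where the highest line had 317 CPM. Its log2 fold change was 0.92 ± 0.20 (adjusted p = 0.0223, edgeR). F59C12.4, annotated as a transcript of 150 nt, had 4222 CPM in N2 at 180 min against 623 to 1518 CPM in the lines. At 0 min N2 was below all lines for this gene, with 1 read and 19.3 CPM against 26.4 to 58.5 CPM. At 270 and 650 min N2 was below the highest line. The log2 fold change of F59C12.4 was 1.06 ± 0.23 (adjusted p = 0.0235, edgeR). It rests on 4 stages, 60, 180, 440 and 830 min, at which N2 was above all lines.

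C41G7.7 was irregular. N2 held 57, 38, 4, 0, 52, 0 and 1 reads of it from 0 to 830 min, or 1102, 552, 53.5, 0, 2054, 0 and 6.92 CPM. Line 575 held 103, 12 and 47 reads at 0, 60 and 180 min, so the gene was not silent in the lines. Its log2 fold change of 3.10 ± 0.66 (adjusted p = 0.0223, edgeR) came from 3 of the 7 N2 libraries. At 650 min N2 had 0 reads where the lowest line had 21.5 CPM. The expression filter asked for a minimum level in 6 libraries, and C41G7.7 passed it only with those 3 N2 libraries included. Its call therefore rests on the same high values that let it be tested.

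**Figure D1:**
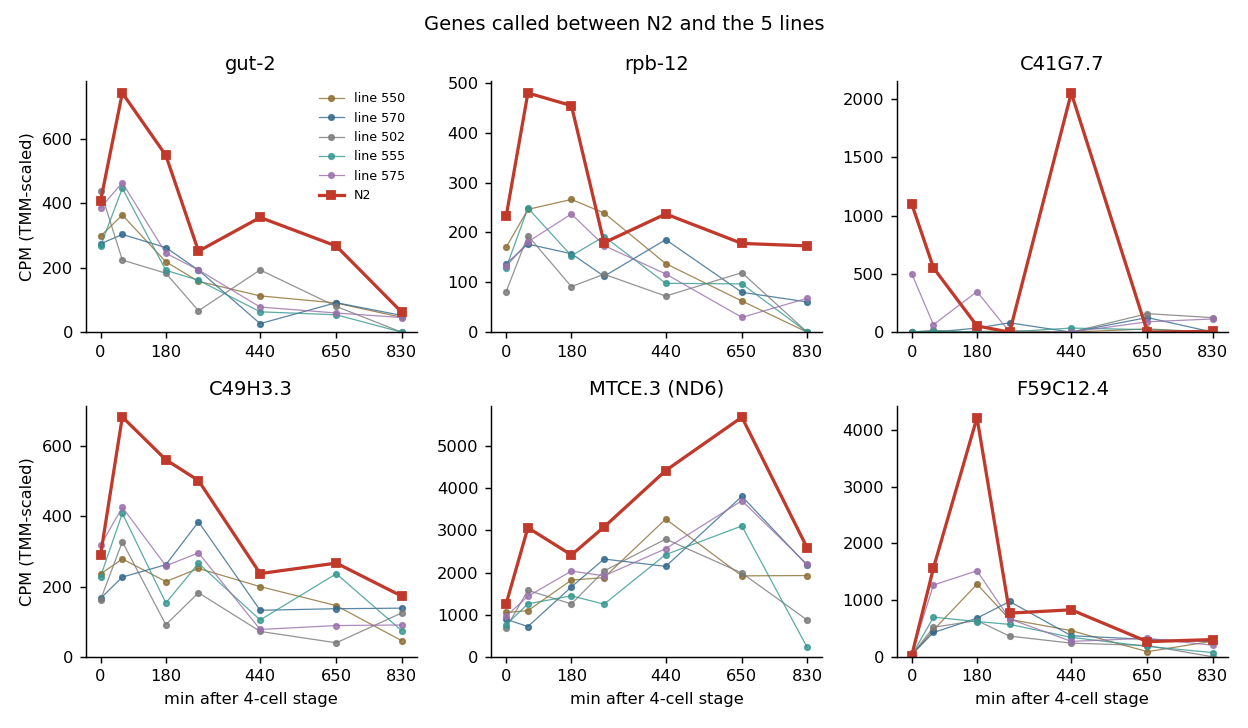
Level of the 6 called genes in TMM-scaled CPM (y axis, linear) against minutes after the 4-cell stage, with N2 as red squares and each of the 5 lines as circles, 1 library per point and no error bars. N2 lies above the lines at 6 of 7 stages for gut-2 and at 7 of 7 for MTCE.3, while C41G7.7 is high in N2 at 0, 60 and 440 min.

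Calls for single genes were few and rested on few libraries. The count was 0 without the 60 min N2 library or without line 555, 1 without the 180 min N2 library or without line 550, 2 without the 440 min N2 library and 28 without the 650 min N2 library. With strains as the unit of replication, 1 against 5, 0 genes were called (209 at unadjusted p under 0.05), and an exact permutation test over these strains cannot give a one-sided p below 0.167. Lines 550, 570, 502, 555 and 575, each put in the place of N2 against the other 5 strains, gave 1 (0.0238%), 2 (0.0476%), 17 (0.405%), 0 (0%) and 2 (0.0476%) called genes. At unadjusted p under 0.05 the counts were 489, 236, 470, 298 and 180 for the lines in this order, above the 404 of N2 for lines 550 and 502. These counts give N2 no fixed place among the strains, since line 555 had 23 against 10 for N2 without the shallow libraries, and line 502 had 27 against 32 for N2 with RLE scaling.

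Mitochondrially encoded transcripts were higher in N2 as a group. These transcripts are made inside the organelle from its own genome and encode subunits of the respiratory chain and the ATP synthase. All 12 identifiers tested had a positive difference, 10 of them at unadjusted p under 0.05 and 1, MTCE.3, after adjustment over all genes. The median log2 fold change was 0.567, against -0.129 over all 4200 genes tested, of which 36.3% were positive. The 12 share 1 genome and long primary transcripts, so they are not independent measurements.

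MTCE.3 had 1257, 3066, 2419, 3083, 4424, 5691 and 2587 CPM in N2 from 0 to 830 min. The medians of the lines were 890, 1258, 1660, 1923, 2567, 3107 and 1930 CPM, and N2 lay above all 5 lines at 7 of 7 stages. The log2 fold change was 0.81 ± 0.18 (adjusted p = 0.0223, edgeR). The call of MTCE.3 was lost in 16 of 27 alternatives, among them the one that also asked for a 2-fold change. MTCE.16 (0.82 ± 0.20, adjusted p = 0.0611) and MTCE.34 (0.72 ± 0.17, adjusted p = 0.0557) missed the threshold, with N2 above all lines at 5 and 6 stages. Each was called in 7 of 27 alternatives, with adjusted p from 0.000123 to 1 and from 9.9e-06 to 1. The alternative that also asked for a 2-fold change set both values by rule and not by a test. Of the others, shown after their values were seen, the smallest difference was that of MTCE.11, the subunit ND1, at 0.23 ± 0.20, and MTCE.23, the oxidase subunit COX3, stood at 0.54 ± 0.18.

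The summed share of gene counts on mitochondrial transcripts in N2 was 1.84%, 2.14%, 2.58%, 3.70%, 3.59%, 4.70% and 2.05% from 0 to 830 min. The corresponding ranges of the lines were 1.07% to 1.47%, 1.36% to 1.60%, 1.57% to 2.45%, 1.56% to 2.49%, 2.33% to 3.08%, 1.86% to 2.52% and 0.938% to 2.93%. N2 was above all 5 lines at each of the 6 stages from 0 to 650 min and inside their range at 830 min. Averaged over stages, N2 had 2.94% ± 1.07 (SD over 7 stages), and the lines lay between 1.73% ± 0.659 in line 502 and 2.11% ± 0.614 in line 570. The SD includes the change over development. The median log2 fold change of the 12 transcripts was 0.495, still with 12 of 12 positive, after each library's trend with transcript length had been removed, a correction chosen after the data were seen.

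**Figure D2:**
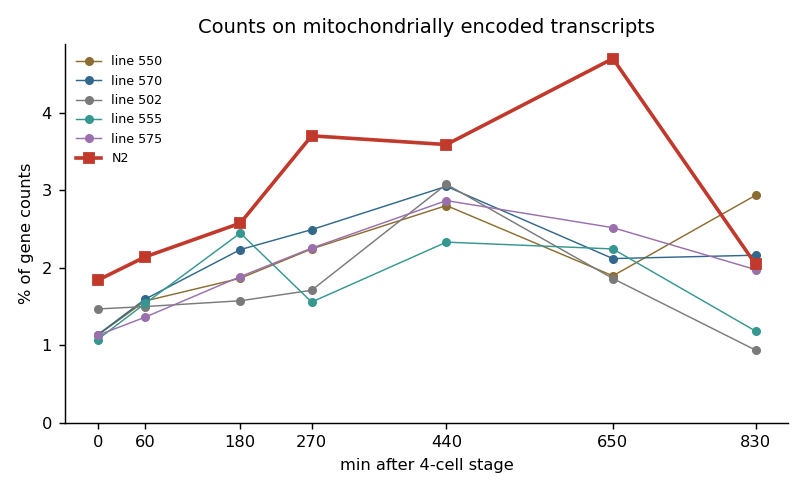
Share of each library's gene counts on mitochondrially encoded transcripts (y axis, %, from 0) against minutes after the 4-cell stage, 1 library per point, with N2 as red squares and the 5 lines as circles. N2 exceeds all lines from 0 min (1.84%) to 650 min (4.70%) and falls within them at 830 min (2.05%).

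The difference of N2 from the lines followed transcript length. Across 4186 genes with an annotated length, the log2 fold change correlated with log2 length at r = -0.498 (Spearman coefficient -0.525), where genes of 1 library share its depth and preparation and are not independent replicates. It was -0.427 with a minimum count of 5, -0.204 with no filter, -0.368 to -0.534 with 1 N2 library or 1 line left out, and -0.125 once each library's trend with length had been removed, which is what that correction is built to do. The median log2 fold change was 0.302 for the 291 genes under 500 nt, 0.0631 from there to 1000 nt, -0.127 up to 2000 nt, -0.34 up to 4000 nt and -0.52 for the 312 genes of 4000 nt and over. Of the shortest genes 81.8% were positive, and of the longest 7.37%. The genes with unadjusted p under 0.05 had a median length of 546.5 nt when higher in N2 and 2941.5 nt when lower, against 1356 nt for all genes tested. The 6 called genes had a median of 445.5 nt.

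The same correlation, computed for each line against the other 5 strains, was 0.19 for line 550, -0.144 for 570, 0.0975 for 502, 0.358 for 555 and -0.13 for 575. These comparisons share libraries with that of N2. In the libraries themselves, transcripts under 500 nt took 12.5% of counts in N2 at 60 min against 7.93% to 9.20% in the lines, 15.6% against 7.77% to 10.5% at 180 min, and 19.8% against 13.5% to 17.4% at 650 min. N2 was above all lines in this share at 0, 60, 180, 440 and 650 min and within them at 270 and 830 min. Transcripts of 2000 nt and over took 12.4% of counts in N2 at 60 min, 15.3% at 180 min and 15.2% at 440 min, below all lines, whose medians were 20.4%, 24.5% and 21.7%. At the other 4 stages N2 was within the lines in this share, and above their median at 0, 650 and 830 min. With the trend removed in each library, 1 gene, C41G7.7, was called, at a log2 fold change of 3.41, and gut-2 stood at 0.82 (adjusted p = 0.0583), C49H3.3 at 0.72 (0.0583), MTCE.3 at 0.60 (0.0895), rpb-12 at 0.71 (0.181) and F59C12.4 at 0.47 (0.54). Over all the alternatives tried, the adjusted p ran from 1.47e-05 to 1 for gut-2 and rpb-12, from 4.88e-05 to 1 for C49H3.3, from 2.48e-06 to 1 for MTCE.3, from 0.00331 to 1 for F59C12.4 and from 7.25e-22 to 0.79 for C41G7.7. RNA integrity was not given in the labels, and its part in the trend was not tested.

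**Figure D3:**
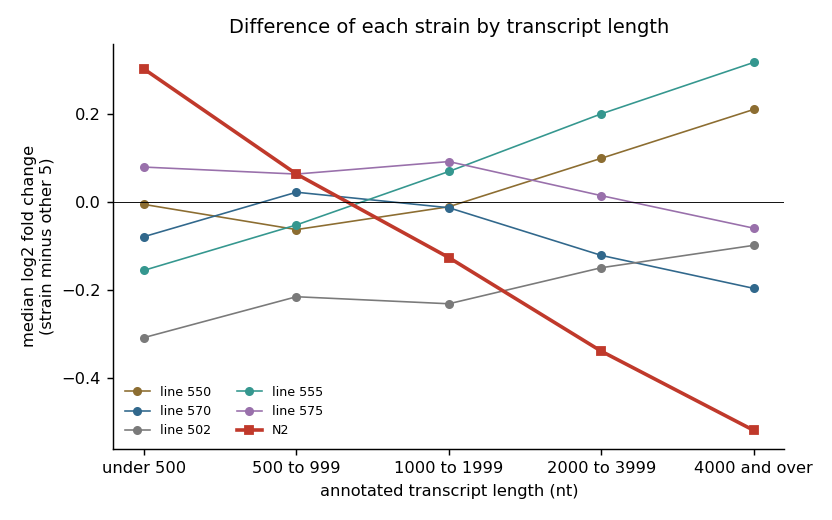
Median log2 fold change of each strain against the other 5 strains (y axis) for genes in 5 classes of annotated transcript length in nt (x axis), with N2 as red squares and each line as circles. N2 runs from 0.302 in the shortest class to -0.52 in the longest, and line 555 runs the other way, up to 0.317.

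The medians of the gene lists ran only partly along with the length of their transcripts. In the comparison over all stages none of the lists but the mitochondrial one had a called member. The spliceosome and RNA-binding list does not hold gut-2. Of 75 cytosolic ribosomal proteins tested, 58 had a positive difference and 7 had an unadjusted p under 0.05, all higher in N2, where over all genes 36.3% were positive and 4.21% were higher at that level. Their median was 0.135 at a median length of 520 nt, with rpl-29 at 0.67 ± 0.17 (adjusted p = 0.0718, edgeR) and rpl-38 at 0.48 ± 0.18 (adjusted p = 0.334). Of 45 spliceosome and RNA-binding genes 7 were higher and 1 lower at that level, with a median of 0.0404. Among them the decapping factor subunit lsm-1 stood at 0.76 ± 0.21 (adjusted p = 0.0992) and the Sm protein snr-7 at 0.46 ± 0.17. The 15 Skp1-related genes had a median of 0.111, and the 23 histones had 0.026, with his-37 at 0.85 ± 0.24 and his-50 at -2.12 ± 0.79, although histone copies share sequence and their separate values are uncertain.

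Several lists with a median length above the 1356 nt of all genes tested lay on the other side, with 0 called members in each. The 9 genes of dosage compensation and sex determination had a median of -0.564 at a median length of 4076 nt. Among them were sdc-2, which brings the dosage compensation complex to the X chromosome, at -1.49 ± 0.48 (adjusted p = 0.207), and the condensin subunit dpy-27 at -0.95 ± 0.35 (adjusted p = 0.318). The 24 epidermal genes had a median of -0.388, with the spectrin sma-1 at -0.96 ± 0.34. Of 24 homeodomain genes, with a median length of 1865.5 nt, 3 had a positive difference. The list held ceh-100 at -1.26 ± 0.40 and the CUX-type ceh-44 at -0.94 ± 0.34.

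All 15 Argonaute and small RNA genes tested had a negative difference, with a median of -0.247 at 3537 nt, and the RNA-dependent RNA polymerase rrf-1 stood at -0.87 ± 0.34 (adjusted p = 0.354). Of 36 body wall muscle genes 5 were positive, with a median of -0.209 at 1547 nt. This list held the vinculin deb-1 at -0.96 ± 0.43 and the myosin myo-3 at -0.83 ± 0.39. Of 33 chaperones 7 were positive, with a median of -0.196 at 1926 nt, and the endoplasmic reticulum chaperone hsp-4 stood at -0.73 ± 0.31. The 27 maternal and germline genes had a median of -0.207 at 1801 nt. They included the Notch receptor glp-1 at -1.39 ± 0.59 and the helicase cgh-1 at -1.28 ± 0.55. Nuclear-encoded subunits of oxidative phosphorylation, the partners of the mitochondrial transcripts, had a median of -0.109, with 11 of 32 positive, near the 36.3% of all genes. Of 35 lists with at least 5 genes tested, 8 had a median above 0, and all 3 lists with a median length under 600 nt were among them. Of 7 lists with a median length of at least 2000 nt, 6 had a median below 0, and the exception was the vitellogenins at 0.0593. Among the 6, nuclear hormone receptors (-0.0446 at 2141 nt) lay above the median of all genes, -0.129. Of the 35 lists, 17 lay below that median. They included lists of shorter transcripts, such as eggshell genes (-0.353 at 1938 nt) and neuronal genes (-0.334 at 1517 nt).

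**Figure D4:**
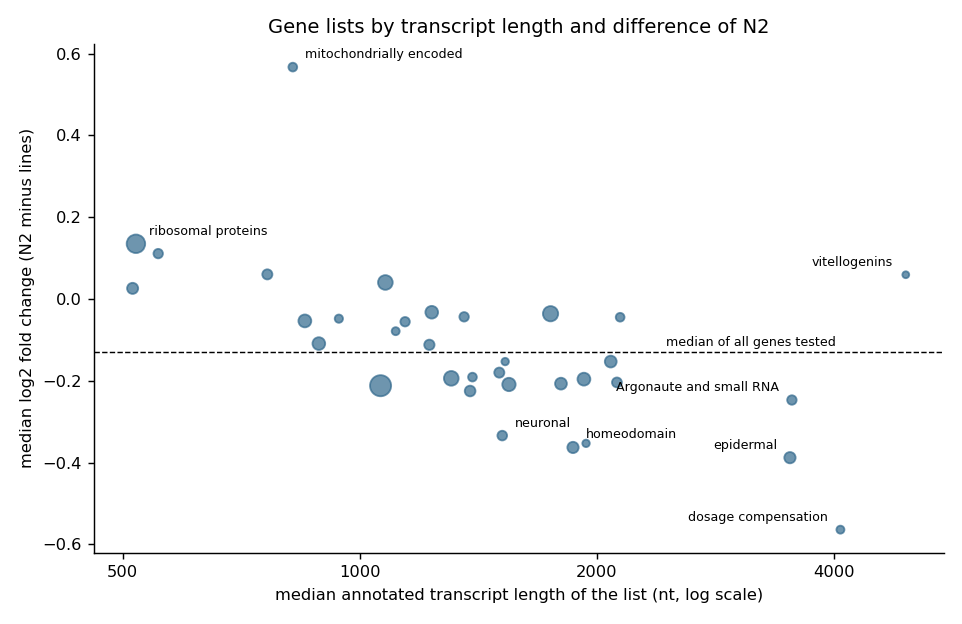
Median log2 fold change of N2 against the 5 lines (y axis) for lists with at least 5 genes tested and annotated lengths, against the median transcript length of the list in nt (x axis, log scale), with point area growing with the number of genes tested and a dashed line at the median of all genes (-0.129). Ribosomal proteins (0.135, 520 nt) and dosage compensation genes (-0.564, 4076 nt) mark the ends of the trend, and the mitochondrial (0.567) and vitellogenin (0.0593, 4934 nt) lists lie above it.

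The genes nearest to a call in the lower direction, named after their values were seen, were let-716 at -1.52 ± 0.38 (adjusted p = 0.0656, edgeR) and swsn-4, the ATPase of the SWI/SNF chromatin remodelling complex, at -0.90 ± 0.25 (adjusted p = 0.114). let-716 held 1, 3, 4, 2, 0, 0 and 15 reads in the N2 libraries and was below all 5 lines at 5 of 7 stages. swsn-4 had 305 CPM in N2 at 60 min against 703 to 1757 CPM in the lines, 535 against 1154 to 1718 CPM at 180 min and 237 against 506 to 817 CPM at 440 min. At the other 4 stages N2 was within the lines. Their transcripts are annotated at 5456 and 4813 nt.

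At single stages, genes were called at 830 min only, and tests of a difference between stages found 0 genes. At 0, 60, 180, 270, 440 and 650 min 0 of 4200 genes (0%) were called, with 128, 262, 303, 131, 194 and 184 genes at unadjusted p under 0.05. The smallest adjusted p at these stages were 0.849, 0.21, 0.141, 0.998, 0.0604 and 0.885 by edgeR. At 830 min 22 genes (0.524%) were higher in N2 and 0 were lower, with 287 genes at unadjusted p under 0.05. A test with 6 degrees of freedom that the difference is equal at all stages called 0 genes (0%; 184 at unadjusted p under 0.05, smallest adjusted p 0.494). The test of late (440, 650 and 830 min) against early stages also called 0 genes (0%; 146 at unadjusted p under 0.05, smallest adjusted p 0.191). The calls at 830 min are therefore not shown to be particular to that stage, and each rests on 1 N2 library that is assumed to vary like those of the lines.

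The 22 genes at 830 min included 9 collagens, col-58, col-77, col-14, col-65, col-66, col-48, col-97, col-115 and col-104, which build the larval cuticle, and the ground-like gene grl-16. Of 99 collagen and cuticle genes tested, 10 were called at this stage, and the median log2 fold change of the 99 was -0.156, below the 0.214 of all genes. Other named members were lea-1, a member of the LEA proteins that protect cells from drying, dur-1, the cathepsin D-like protease asp-4, the proteasome subunit rpn-12, whose call was lost in 5 of 9 alternatives, and the similarly named genes C02E7.6 and C02E7.7, whose likeness in sequence was not examined. N2 was above the highest line at 830 min for all 22, but these are the values on which the genes were called and add no support. Apart from R12E2.7, dur-1 and C02E7.6, those with the smallest p, the genes described singly were picked after their values were seen. For 19 of the 22 the median of the lines was higher at 650 min than at 830 min, and for 15 the value of N2 was. For 18 of them N2 lay within the range of the lines at 650 min.

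R12E2.7 had 278 reads in N2 at 830 min, and 0, 1, 2, 0 and 3 reads in lines 550, 570, 502, 555 and 575. In CPM that was 1923 in N2 and a median of 8.65 in the lines, whereas at 650 min N2 had 3112 CPM and the lines a median of 3738 CPM. Its log2 fold change at 830 min was 5.85 ± 0.87 (adjusted p = 9.82e-05, edgeR). C02E7.6 had 228 reads in N2 and 0, 5, 2, 0 and 7 in the lines (4.40 ± 0.83, adjusted p = 0.00361), after 11249 CPM in N2 and a median of 10899 CPM in the lines at 650 min. Both genes had lower values at 830 than at 650 min in all 6 strains and stood highest in N2 at the later time.

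gmap-3 had 48 reads in N2 and 0 in all 5 lines. That is 192 CPM of total counts against at most 8.94 CPM if 3 reads are allowed over the 5 lines together. This floor covers counting error of the lines only, where line 570 held 197750 of 335581 counts. By this floor gmap-3 was at least 21.5-fold higher in N2. Its call was lost without line 570 (adjusted p = 0.0562, and 7.48e-08 to 0.0562 over the alternatives). Of the collagens, 3 are given here. col-77 had 161 reads in N2 and 3, 9, 0, 2 and 9 in the lines (3.19 ± 0.63, adjusted p = 0.00361), col-65 had 127 and 0, 4, 1, 1 and 6 (3.78 ± 0.78, adjusted p = 0.00529), and col-104 had 117 and 2, 8, 2, 0 and 5 (3.20 ± 0.79, adjusted p = 0.0349). Over the 9 alternatives for this stage the adjusted p of col-104 ran from 1.04e-05 to 0.0845 and its call was lost in 6, while col-77 and col-65 stayed called in all 9. col-115 had a different order, with 178 CPM in N2 at 650 min, below all lines, and 284 CPM at 830 min. For 18 of the 22 genes every line had fewer than 10 reads at 830 min.

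The genes whose median in the lines was not higher at 650 min than at 830 min were lea-1, dur-1 and asp-4. These also rose in N2 from 650 to 830 min, as did col-115, idpc-7, rpn-12 and lact-2. lea-1 had 311 CPM in N2 at 650 min and 3853 CPM at 830 min, with medians of 148 and 448 CPM in the lines and 374 to 770 CPM over the 5 lines at 830 min. Its log2 fold change at 830 min was 2.80 ± 0.55 (adjusted p = 0.00361, edgeR). dur-1 had 291 reads and 2013 CPM in N2 at 830 min, against 0 to 498 CPM in the lines (2.46 ± 0.46, adjusted p = 0.00361). asp-4 had 63 reads in N2 and 3, 6, 0, 0 and 4 in the lines (2.71 ± 0.57, adjusted p = 0.0074), and its call was lost without line 570 (adjusted p = 0.0599, and 0.00206 to 0.0599 over the alternatives).

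**Figure D5:**
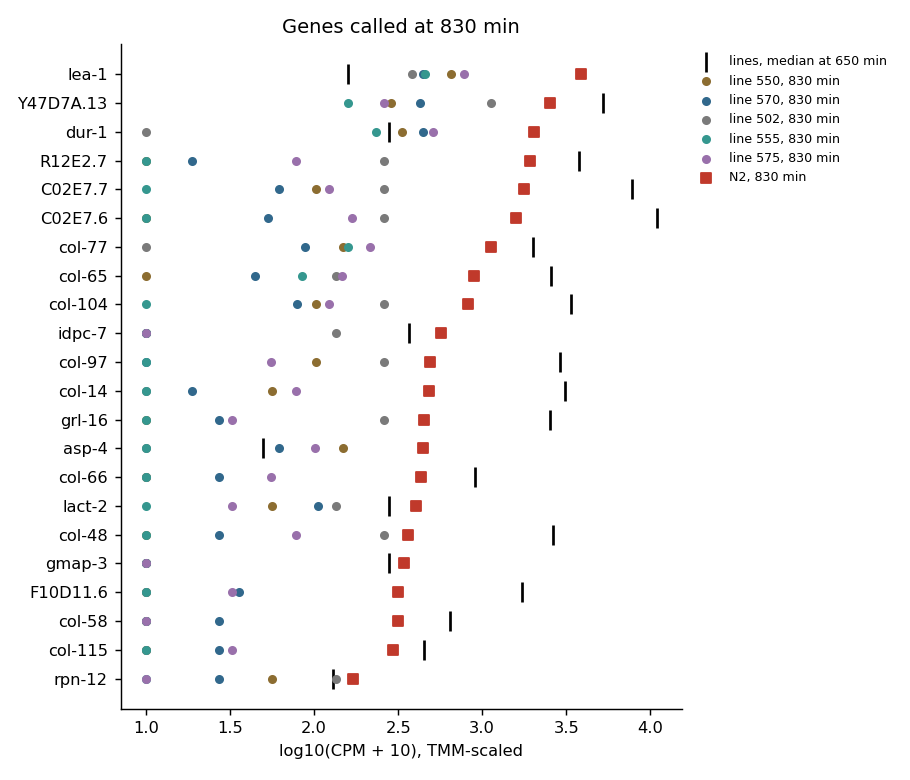
Level at 830 min of the 22 genes called at that stage, as log10 of TMM-scaled CPM plus 10 (x axis, log scale), with N2 as red squares, each line as a circle, and the median of the lines at 650 min as a black tick; lines with 0 reads overlap at 1.0. N2 lies above all 5 lines for every gene, in the values on which the genes were called. For 19 genes the tick of 650 min lies above the median of the lines at 830 min.

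Developmental position was estimated by matching each library to profiles interpolated between the stage means of the other 14 strains. The N2 library of 830 min matched best at 798 min and those of the lines at 769 min (line 502), 816 min (575), 819 min (555) and 830 min (550 and 570). The scale ended at 0 and 830 min, so no library could be placed beyond these. At 830 min N2 was earlier than every line but 502. The library of line 502 held 5653 counts and matched at r = 0.67, against 0.91 for N2. At the other 6 stages N2 was within the range of the lines. The 830 min markers marg-1, col-147 and fipr-1 summed to 916 CPM in that N2 library, below the 1240 to 2370 CPM of the lines. The part of developmental age and of depth in the 22 calls was not tested. Without the 2 shallowest libraries, those of lines 502 and 555 at 830 min, 23 genes were called, of which 19 were among the 22. Without line 570, the deepest of the lines at that stage (197750 counts), 18 genes were called, 11 of them among the 22. Over the stages as a whole, adding each library's position to the model gave 12 called genes in place of 6, all higher in N2, including the 6.

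Some genes had no reads in any N2 library. There were 40 genes with 0 counts over the 7 N2 libraries and at least 30 counts over the lines with each line contributing. The reverse case had a different rule, with a minimum count in N2 and 0 counts over the 35 line libraries. It was met by 0 genes. The lines held 4599674 counts in all against 573910 in N2, so 0 counts over the lines was harder to reach. The 40 and the 0 are therefore not comparable, and they do not show a one-sided loss in N2. lin-38 had 100 reads over the 5 lines, 38, 5, 11, 27 and 19 in lines 550, 570, 502, 555 and 575, where 12.5 would be the share of N2 by depth. With 3 reads allowed over the 7 N2 libraries, or 5.23 CPM of total counts, against 21.7 CPM in the lines, lin-38 was at least 4.16-fold lower in N2. By the same floor spat-1, the Bora homolog that acts with Polo kinase, was at least 3.54-fold lower, him-5, a gene of meiotic break formation on the X chromosome, 2.95-fold, cut-5 and Y53F4B.27 2.58-fold and pqn-15 2.54-fold. The floors cover counting error only. The same count for each strain against the other 5 was 5 in line 550 (1201036 counts in all), 8 in 555 (1413887), 17 in 570 (718070), 36 in 575 (928654), 40 in N2 (573910) and 321 in 502 (338027). The strains with the most such genes, N2 and 502, were the shallowest, and no test singles out a gene of the N2 list.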

How the data were processed

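Pools of 10 embryos were profiled by CEL-Seq. The authors deposited raw counts per gene, and per the submitters' processing notes reads were handled with CASAVA 1.8 and Bowtie2 2.1.0. How reads were assigned to genes (program, build, annotation, strand) is not given in the sources used here. Molecular identifiers are not mentioned. Of 20687 genes, 20063 matched RefSeq WBcel235 names. Transcript lengths came from Ensembl's WBcel235 annotation.

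The 7 N2 and 35 line libraries were fitted with edgeR 4.0.16 (R 4.3.3) by the quasi-likelihood test, two-sided, with TMM scaling, stage as covariate and filterByExpr by stage (minimum count 10, blind to strain), which left 4200 genes. CPM values are TMM-scaled. A gene was called at a Benjamini-Hochberg adjusted p under 0.05 over all genes. Position, shares and lists are descriptions. The test was run on simulated counts drawn independently for each library, without correlation within strains or a trend with length. It called 44% of genes given a log2 change of 1, 90% of those given 2 and 0.125% of unchanged genes. The simulation therefore does not cover spread between strains. Members, lists and tests were chosen with earlier results of these data known. Named genes were the called genes, up to 3 per stage, up to 3 per list by p, and up to 6 without counts; the rest are said to be chosen later. Alternatives included RLE scaling, other filters, DESeq2 1.42.0, limma 3.58.1, left-out libraries and lines, and all 19 lines.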

Additional observations from a re-analysis of the deposited data

Results flagged for a closer look

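Among 30 groups of 7 libraries examined for a library far from the rest, 3 had one, where chance flags about 1 in 20 groups and stage itself moves most of these values. The N2 library of 830 min stood apart in depth, with a total count of 249938. The N2 library of 180 min stood apart in F59C12.4, at 4222 CPM. In line 502, the 440 min library stood apart in the share of counts on mitochondrial transcripts, at 3.077%.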

How the results depend on the processing

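The count of 6 genes called between N2 and the lines depended on the model. It was 32 with RLE scaling, 60 with no filter, 10 without the shallow libraries, 45 with DESeq2, 23 with strain as a fixed term, 12 with developmental position, 31 with all 19 lines and a term for the sample numbering and 280 without that term. It was 0 with limma-voom and correlation within strains (279 at unadjusted p under 0.05) and 0 with the strain as unit (209). With no replicate block, that is with stage left out, it was 0 (61). Leaving out 1 N2 library or 1 line gave 0 to 28. After the data were seen, 2 alternatives were added: without the 830 min libraries 25 genes were called, and with the length trend removed 1. The cause was not tested, except that fewer or more genes were tested where the filter or the libraries changed.

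At 0, 60, 180 and 440 min the count of 0 became 1 at each with no filter, 2 at 60 min with RLE scaling and 1 at 440 min with a minimum count of 5, and leaving out a line gave 0 to 1 at 440 min. At 830 min the 22 became 98 with no filter and 16 to 30 without 1 line, and RLE scaling moved the median of all genes there from 0.214 to 0.0711. The test over stages gave 24 with no filter. In the place of N2, line 502 gave 27 and line 575 gave 0 with RLE scaling; lines 550, 555 and 575 gave 6, 15 and 0 with a minimum count of 5; lines 550, 570, 555 and 575 gave 53, 19, 59 and 31 with no filter; and lines 550 and 555 gave 6 and 23 without the shallow libraries.

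No log2 fold change of the 6 called genes, of MTCE.16 and MTCE.34 or of the 22 genes at 830 min changed sign under the alternatives run for it. The median of the mitochondrial transcripts stayed between 0.481 and 1.26, with 12 of 12 positive each time. The correlation with transcript length stayed between -0.544 and -0.125. Depth limits the single-stage values, since rpb-12, for example, had 4 to 34 reads in an N2 library.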
